A study of Equus caballus with 4 samples.

Results

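CC chemokines are small secreted proteins whose first conserved cysteines lie side by side. They bind receptors of the CCR family on leukocytes and draw these cells along a gradient, and in muscle the ligands of CCR2 are known for recruiting monocytes and macrophages after injury. Many of their genes lie next to each other in mammalian genomes, in a cluster of monocyte chemoattractant and eotaxin genes and a nearby cluster of macrophage inflammatory protein genes, whereas *CCL20* lies alone on another chromosome. The description below concerns *CCL2*, *CCL5*, *CCL7*, *CCL8*, *CCL11*, *CCL13* and *CCL20* in ESC (equine satellite cells, precursors that fuse into myotubes) during differentiation. The genes were chosen by name with their ratios on these arrays already known, so those ratios, and the count of probes past the thresholds, are given as a description and not as a test.

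The study asked how HMB (β-hydroxy-β-methylbutyrate, a metabolite of leucine) changes the transcripts of ESC that are exposed to hydrogen peroxide. The cells came from *m. semitendinosus* of stallions 6 months old, and the culture that scored best for viability and fusion was used, so the 4 arrays need not stand for 4 horses. The HMB cells received 50 µM HMB for 24 h up to the 3rd day of differentiation and 3 mM H2O2 in the last 1 h. The control cells received H2O2 alone, so H2O2 was common to both groups and no untreated cells were compared. Each of 4 two-colour arrays on 1 slide carried HMB RNA in Cy5 and control RNA in Cy3 with no dye swap, so dye and treatment cannot be told apart. The labels call the HMB sample a biological replicate but write the same replicate number for the control on all 4 arrays; if this was 1 RNA, the spread of the control is missing from the errors.

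Probes were found for 6 of the 7 genes, out of 13357 gene symbols on the array, and *CCL7* had none under that symbol. The 6 genes had 25 probes of 60 bases in 29 spots per array. No spot was saturated, and 1 spot of *CCL11* was marked as an outlier on 1 array and left out there. The test took probes with a signal well above background in at least 1 channel throughout the 4 arrays, which all 25 had; 23 had it in both channels. A probe was called when limma's adjusted p was at most 0.05 and the FC at least 1.3. All 25 probes were called higher with HMB, against 12.1% of the 24670 probes tested. In either direction 28.6% of probes were called, and because the genes were chosen for these ratios nothing is read from the count. Of the calls over the array, 42.5% were higher with HMB; this share was 55% with normexp background correction and loess, 60.1% with loess without background correction and 65.3% with median centring without lowess.

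The probes differ in what part of a transcript they read, and the files give no exon or UTR for them. For *CCL2*, *CCL5* and *CCL8* 1 probe each spans more genome than its own 60 bases, so it bridges an intron and reads spliced RNA. The 3 bridging probes are shown whole, with 1 probe each of *CCL13* and *CCL20*. In the *CCL2* and *CCL8* probes the capitals mark a run of 21 bases that both hold, and in the *CCL5* probe a run of 15 bases that the *CCL2* probe also holds. In the *CCL13* probe the capitals mark the adjacent codons for the paired cysteines that name the family. In the *CCL20* probe they mark the stop codon that ends its frame.
*CCL2* (A_69_P006396, EquCab1 chr11:37348878-37349314, minus strand): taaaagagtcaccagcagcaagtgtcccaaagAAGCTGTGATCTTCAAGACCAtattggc
*CCL8* (A_69_P005111, EquCab1 chr11:37276112-37276598, minus strand): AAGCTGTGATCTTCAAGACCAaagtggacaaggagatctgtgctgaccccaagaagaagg
*CCL5* (A_69_P006636, EquCab1 chr11:36087534-36091723, plus strand): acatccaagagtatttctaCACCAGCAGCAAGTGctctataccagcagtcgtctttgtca
*CCL13* (A_69_P005117, EquCab1 chr11:37266690-37266749, minus strand): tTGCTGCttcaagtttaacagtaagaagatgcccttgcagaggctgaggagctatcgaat
*CCL20* (A_69_P050601, EquCab1 chr6:15925172-15925231, plus strand): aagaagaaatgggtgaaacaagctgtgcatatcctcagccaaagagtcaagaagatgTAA

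Between all other pairs of these genes the longest run that any of their probes shared was 9 bases. Cross-hybridization between *CCL2* and *CCL8* or *CCL5* transcripts on the bridging probes was not tested. The first 30 bases of probes nearer the 3′ end are shown for *CCL11* and for the other pair of *CCL8* probes, in lower case since no part is marked. The *CCL8* pair start 20 bases apart and so read almost the same stretch.
*CCL11* (A_69_P000770, EquCab1 chr11:37313892-37313951, minus strand): ccctgctcttcctaagatgtgtcctgagat
*CCL8* (A_69_P001651, EquCab1 chr11:37275627-37275686, minus strand): gaagtcaaatgcgtgctatggagtggtgtt
*CCL8* (A_69_P001652, EquCab1 chr11:37275647-37275706, minus strand): cttaggaaatcggtgctcctgaagtcaaat

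The ratios below are log2 of the HMB signal over the control signal, so 1 unit is a doubling, and each gene is given by its probe of highest mean intensity with the others beside it. *CCL2* encodes the main monocyte attractant that acts through CCR2. Its brightest probe (A_69_P001616, chr11:37348561-37348620) had log2 ratios of 4.38, 4.42, 4.46 and 3.85 on arrays 1 to 4. The mean was 4.28 ± 0.29 (SD, n = 4), an FC of 19.4. The control signal lay between 4326 and 6031 and the HMB signal between 80120 and 133037, so the channels did not overlap. The 5 probes at the 3′ end, each shifted by 1 base from the next, gave means of 4.28 to 4.30. The bridging probe shown above gave 3.67, 3.57, 3.70 and 3.22, with a mean of 3.54 ± 0.22 (SD, n = 4) and an FC of 11.6.

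*CCL8*, known as monocyte chemoattractant protein 2, had its brightest probe over the intron (A_69_P005111). This probe gave log2 ratios of 3.85, 3.69, 3.84 and 3.44, with a mean of 3.70 ± 0.19 (SD, n = 4) and an FC of 13. Its control signal was 1244 to 1606 and its HMB signal 13522 to 22943. The other 2 *CCL8* probes were far dimmer with HMB, at 151 to 393 for A_69_P001651 and 176 to 448 for A_69_P001652. The bridging probe holds the run of 21 bases that the bridging *CCL2* probe also holds. The part of *CCL2* RNA in its signal was not tested. The *CCL8* pair nearer the 3′ end was not well above background in the control on any array, so its HMB signal was set against a floor. Against this floor it was 11-fold higher with HMB for A_69_P001651 and 12.3-fold for A_69_P001652. The floor is the lowest control signal well above background of any probe, or the probe's own control signal where that is higher. It was taken per channel after lowess and Aquantile. A signal not well above background can exceed that lowest value, so these folds are not strict lower bounds, and they are open to dye bias. The measured log2 ratios of the pair, 5.39 ± 0.42 and 4.55 ± 0.52 (SD, n = 4), fell to 1.47 and 1.38 with normexp. Both values are below the folds against the floor. The bridging *CCL8* probe stood at 3.55 with normexp.

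*CCL13* encodes another ligand of CCR2 and CCR3. Its brightest probe (A_69_P002341, chr11:37266075-37266134) gave 3.15, 2.97, 2.90 and 2.72, a mean of 2.93 ± 0.18 (SD, n = 4) and an FC of 7.64. The control signal was 212 to 363 and the HMB signal 1398 to 2844. Array 4 was low in both channels for this probe. The other 3 *CCL13* probes, of which 2 start at the cysteine codons, gave means of 3.11 to 3.20. Probes that start between bases 98 and 237 of the transcript thus had similar ratios.

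*CCL11* encodes eotaxin, which acts on eosinophils through CCR3. Its brightest probe (A_69_P000770) gave 3.18, 3.69, 3.78 and 2.98, with a mean of 3.41 ± 0.39 (SD, n = 4) and an FC of 10.6. Arrays 2 and 3 were high and arrays 1 and 4 low. The difference lay in the HMB channel, with signals of 1392, 2121, 2449 and 1194, whereas the control signals were 154, 164, 178 and 152. One *CCL11* probe (A_69_P000766) was spotted 5 times on each array, which separates the spread among spots from that between arrays. The spread between arrays also holds any difference between the samples. The SD among its spots was 0.07 to 0.16 within an array, against 0.39 between the array means.

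*CCL5* (RANTES) attracts T cells and monocytes through receptors that include CCR1 and CCR3. Its brightest probe (A_69_P001131, chr11:36091827-36091886) gave 3.63, 3.48, 3.53 and 3.57, a mean of 3.55 ± 0.06 (SD, n = 4) and an FC of 11.7, the smallest spread of the 25 probes. Both signals varied more than this but moved together, with 57.6, 124, 106 and 41.7 in the control and 713, 1380, 1226 and 495 with HMB. The bridging probe gave 2.84, 2.28, 2.50 and 1.70, a mean of 2.33 ± 0.48 (SD, n = 4) and an FC of 5.03. The brightest probe gave 2.08 with normexp and 2.58 with no background correction, both with loess in place of the deposited lowess.

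*CCL20* encodes the ligand of CCR6, which attracts dendritic cells and some lymphocytes, and it had the highest ratios of the 6 genes. Its brightest probe (A_69_P050601) gave 6.93, 6.90, 6.74 and 6.49, with a mean of 6.77 ± 0.20 (SD, n = 4) and an FC of 109. The control signal was 67.0, 75.4, 131 and 93.3, well above background on all 4 arrays, and the HMB signal was 8189 to 13950. The 5 overlapping *CCL20* probes had means of 6.71 to 6.82 and ranked between 6 and 10 of 24670 tested probes from the highest ratio down. The brightest gave 5.44 with normexp and 5.92 with no background correction. By brightest probe *CCL20* stood above the other 5 genes on each array, and its mean was the highest of the 6 under both of these settings too.

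**Figure D1:**
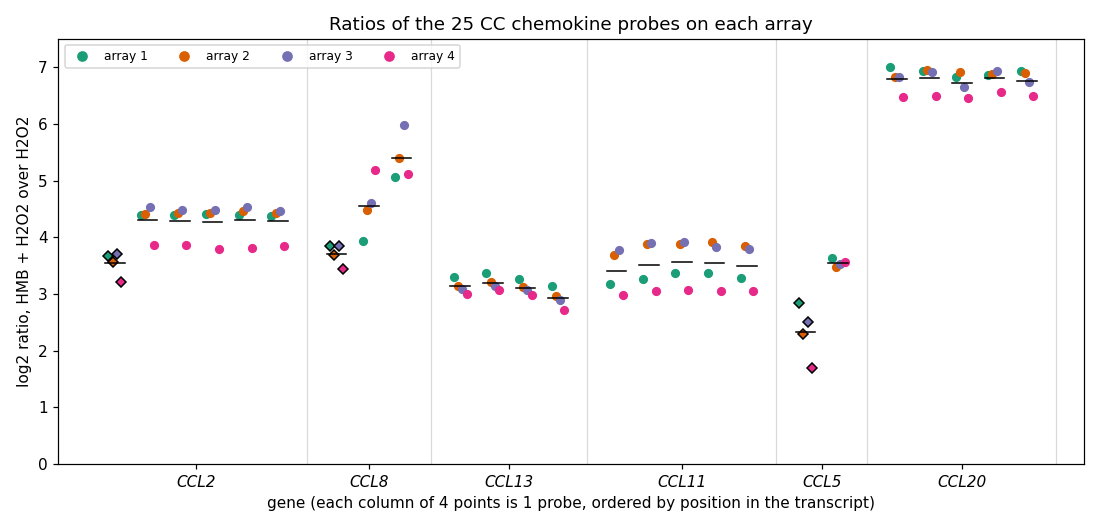
The log2 ratio of HMB + H2O2 over H2O2 (vertical axis) is plotted for each of the 25 probes on each of 4 arrays (colours), with a bar at the mean; diamonds with a black edge are the probes that bridge an intron. All 100 values lie above 0, *CCL20* stands highest, and array 4 is the lowest for the brightest probe of 5 of the 6 genes.

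**Figure D2:**
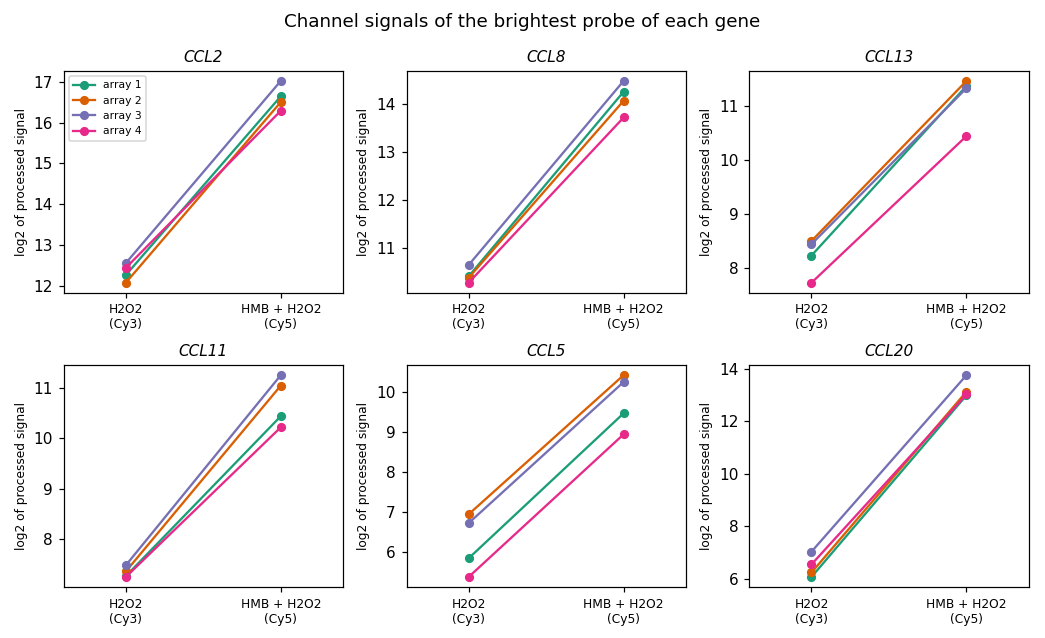
Each panel gives the log2 of the processed signal (vertical axis) of the brightest probe of 1 gene in the control channel and the HMB channel, with a line per array. The signals of *CCL11* spread in the HMB channel (SD 0.49) and not in the control (SD 0.11), while those of *CCL5* spread alike in both (SD 0.74 in the control and 0.69 with HMB).

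In the order of the ratios, *CCL20* (6.77 ± 0.20) was separated from *CCL2* (4.28 ± 0.29) by more than their spread, and by brightest probe *CCL2* stood above *CCL8* (3.70 ± 0.19) on each array. This order sets a 3′ probe of *CCL2* against the bridging probe of *CCL8*. By the bridging probes *CCL8* was the higher on all 4 arrays, and by the mean over all probes it was too, at 4.55 against 4.16. That mean includes the *CCL8* pair with no control signal well above background, which fell to 1.47 and 1.38 with normexp. No order of *CCL2* and *CCL8* is drawn. *CCL8*, *CCL5* and *CCL11* (3.70 ± 0.19, 3.55 ± 0.06 and 3.41 ± 0.39) were neighbours that did not differ beyond their spread as deposited. *CCL13* (2.93 ± 0.18) overlapped with the lower arrays of *CCL11*. Array by array *CCL13* lay below *CCL11*, though by little on array 1 (3.15 against 3.18). With normexp and loess these genes spread out, to 3.55 for *CCL8*, 2.43 for *CCL11*, 2.38 for *CCL13* and 2.08 for *CCL5*. With loess alone they gave 3.69, 2.89, 2.69 and 2.58 in the same order. Array 4 gave the lowest ratio for the brightest probe of 5 genes, and array 2 did for *CCL5*. The median over the 6 brightest probes was 3.74, 3.69, 3.81 and 3.51 on arrays 1 to 4, and 3.63 over the 4-array means. Over all tested probes the median log2 ratio was -0.07. Of all tested probes, 377 had a mean ratio at or above that of the lowest of the 25, the bridging *CCL5* probe.

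The bridging probes of *CCL2* and *CCL5* gave lower ratios than the other probes of their gene on all 4 arrays. The difference was -0.75 ± 0.10 (SD, n = 4) for *CCL2* and -1.22 ± 0.46 for *CCL5* on the log2 scale. With normexp and loess it was -0.75 and -0.90, and with loess alone -0.75 and -1.04. For *CCL8* the difference was -1.27 ± 0.45 (SD, n = 4) as deposited, 2.13 with normexp and loess, and 1.69 with loess alone. Its sign changed with the background treatment, and the other pair had no control signal well above background. No order of the *CCL8* probes is drawn.

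**Figure D3:**
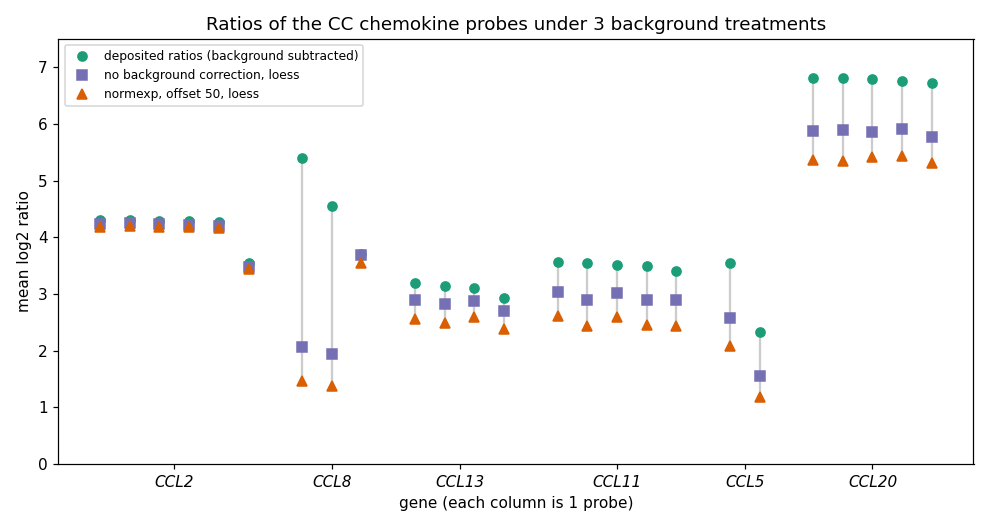
The mean log2 ratio over 4 arrays (vertical axis) of each of the 25 probes is shown as deposited, with loess alone, and with normexp and loess. The brightest *CCL2* probe goes from 4.28 as deposited to 4.17 with normexp and that of *CCL20* from 6.77 to 5.44, and the *CCL8* probes without a control signal well above background fall from 5.39 and 4.55 to 1.47 and 1.38.

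On EquCab1 the probes of *CCL13*, *CCL8*, *CCL11* and *CCL2* lie in this order within 83.2 kb of chromosome 11, all on the minus strand. *CCL5* lies 1174 kb away on the plus strand of the same chromosome, and *CCL20* on chromosome 6. The RefSeq gene table of a later horse assembly has *CCL1*, *CCL13*, *CCL8*, *CCL11* and *CCL2* in the same order, with 1 protein-coding gene that has no symbol (LOC100071714) between *CCL11* and *CCL2*. Inside the 83.2 kb there were 3 more tested probes, and all 3 were called higher. They have no symbol in the files and lie between *CCL11* and *CCL2*. The probes of ENSECAT00000025677, which the files describe as a C-C motif chemokine 2, stood at 3.53 ± 0.21 and 3.59 ± 0.25 on the log2 scale (SD, n = 4; adjusted p = 2.26e-06 and 3.43e-06 by limma). Their longest run shared with a *CCL2* probe was 6 bases, and with a *CCL13* probe 12 bases. The neighbouring cDNA BM734883, cloned from monocytes, gave 3.25 ± 0.26 (SD, n = 4; limma adjusted p = 5.53e-06). Which chemokine gene these 3 probes read is not settled by the files.

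Genes within 500 kb of the chemokines were read for comparison. Beyond *CCL13* on chromosome 11, 3 of 5 *CCL1* probes were tested and called higher. They passed the filter through the HMB channel alone, with no control signal well above background. *TMEM132E* stood at -0.12 ± 0.19 on the log2 scale (SD, n = 4, adjusted p = 0.304 by limma). A transcript of an uncharacterized protein stood at -0.23 ± 0.23 (limma adjusted p = 0.0989). Around *CCL5*, 22 other probes were tested, of which 2 were called higher and 4 lower. *CCL14*, a chemokine gene of the same stretch, had 0.02 ± 0.13 (SD, n = 4; limma adjusted p = 0.830). *SLFN5*, a gene of the interferon-induced schlafen family, was called higher (limma adjusted p = 8.79e-06). It passed the filter through the HMB channel alone, with no control signal well above background, so its p rests on dim control values. Against the kind of floor used for *CCL8* it was 3.33-fold higher. *UNC45B*, a myosin chaperone of striated muscle, fell by 0.92 on the log2 scale (adjusted p = 0.000131 by limma). Around *CCL20*, 8 probes were tested and both probes of *DAW1*, a dynein assembly factor, were called higher, by 0.50 ± 0.20 and 0.67 ± 0.10 on the log2 scale (SD, n = 4; adjusted p = 0.00527 and 0.000577 by limma). The probes of *MFF* and *TM4SF20*, farther from *CCL20*, were not called.

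**Figure D4:**
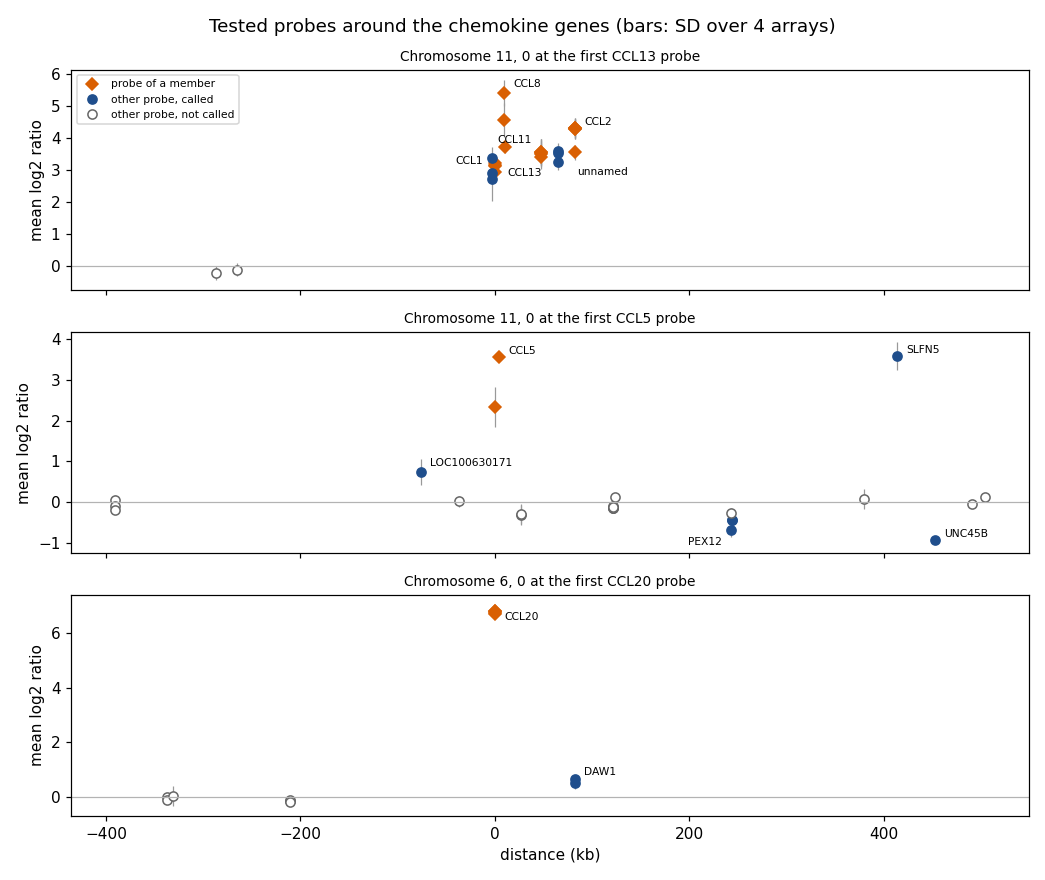
Mean log2 ratio with its SD over 4 arrays (vertical axis) against distance in kb (horizontal axis) for tested probes around *CCL13* to *CCL2*, *CCL5* and *CCL20*; diamonds are probes of the genes described, filled circles other called probes and open circles probes not called. The chromosome 11 cluster and its unnamed transcripts lie at 2.72 or higher, whereas the 2 probes on its far left and most probes around *CCL5* and *CCL20* lie near 0.

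Among 17 further CC chemokine genes, 14 had a probe and 6 were tested. With HMB 2 rose and 1 fell, and 3 were not called; over all 8326 genes tested by their brightest probe, 10.1% were called higher and 17.2% lower. The median log2 ratio of the 6 was 0.39, against -0.09 over all genes. This list was drawn up with earlier results of these data known, so its counts are a description. *CCL1*, a ligand of CCR8 next to *CCL13*, had 2.72 ± 0.71 (SD, n = 4, limma adjusted p = 0.000407). With no control signal well above background, it was 2.51-fold higher against the kind of floor used for *CCL8*. *CCL1* passed the filter through the HMB channel alone. When both channels had to be well above background it was not tested, and 1 gene rose and 1 fell. *CCL19*, a ligand of CCR7, rose by 0.64 ± 0.10 (limma adjusted p = 0.000664), which was not called with normexp. *CCL17*, a ligand of CCR4, fell by 1.22 on the log2 scale, with -1.17, -1.14, -1.25 and -1.33 on the 4 arrays (limma adjusted p = 4.18e-05). *CCL3* and *CCL4*, of the cluster near *CCL5*, were among the 8 genes whose probes were not well above background in 1 channel on all arrays.

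Most receptors of CC chemokines did not pass the filter. Of 13 receptor genes 12 had a probe, and 10 of these were not well above background in 1 channel on all 4 arrays, among them *CCR2*, *CCR3* and *CCR6*. *ACKR4*, a scavenging receptor that binds CCL19 and CCL21 and takes them out of the medium, rose by 2.68 ± 0.25 on the log2 scale, with 2.33, 2.73, 2.92 and 2.74 on the 4 arrays (limma adjusted p = 1.17e-05). *CCR10* had -0.02 ± 0.36 (adjusted p = 0.932).

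Transcription of CC chemokine genes is known to depend on NF-κB, interferon regulatory factors, STAT proteins, AP-1 and C/EBP factors. Of 12 such genes 11 were tested; 8 rose, none fell and 3 were not called, against 10.1% of all genes called higher. The median log2 ratio was 0.59, against -0.09 over all genes. The regulators too were listed with earlier results of these data known, so their counts are a description. *NFKBIA*, the inhibitor that NF-κB itself induces, had 1.90, 2.02, 2.35 and 1.89, a mean of 2.04 ± 0.21 (SD, n = 4; limma adjusted p = 2.36e-05). *IRF1*, an interferon regulatory factor, rose by 1.74 ± 0.11 (limma adjusted p = 1.22e-05) and *STAT3*, which carries signals of the IL6 family, by 0.65 ± 0.22 (adjusted p = 0.00256). The NF-κB subunit genes *NFKB1* and *RELB* rose by 0.95 ± 0.16 (limma adjusted p = 0.000293) and 0.90 ± 0.32 (adjusted p = 0.00191); *RELB* was not called with normexp. With limma's test against an FC of 1.3, 4 of the 8 remained called (*STAT3* did not), and with normexp 5 did. Over the alternatives *REL* and *STAT6* were the calls most often lost. *RELA* (0.16 ± 0.35, adjusted p = 0.369), *IRF3* (0.13 ± 0.16, adjusted p = 0.219) and *JUN* (0.24 ± 0.24, adjusted p = 0.0923) were not called.

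Markers of cell types that ESC cultures can hold were read beside the chemokines. These lists were also drawn up with earlier results of these data known, so their counts are a description. Of 9 muscle markers 8 were tested and 6 fell, against 17.2% of all genes called lower, led by *MYF5* with 1.49 and *MYH3* with 1.38 on the log2 scale (limma adjusted p = 0.000321 and 0.000403). *MYOD1* and *MYOG* had 0.32 ± 0.25 and 0.03 ± 0.22 and were not called, and *PAX7* was not well above background on any array. The summed signal of the muscle markers was 167235 to 189152 in the control and 63594 to 101337 with HMB. Of 6 fibroblast markers 4 rose, against 10.1% of all genes called higher, led by *PDGFRA* with 1.49 ± 0.26 (limma adjusted p = 0.000153). By brightest probe *COL1A1* (0.18 ± 0.37, limma adjusted p = 0.340) and *COL3A1* (0.06 ± 0.29, adjusted p = 0.669) were not called. Of the 7 *COL3A1* probes 3 were called higher. The summed signal of the 6 markers was 221825 to 259557 in the control and 252026 to 387134 with HMB, a range that overlaps. Adhering fibroblasts had been removed during isolation. Fewer cells of a type and less RNA per cell cannot be told apart in these bulk samples.

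Of 8 leukocyte markers 4 were tested and 2 rose, against the same 10.1%, with *CD68* and *PTPRC* higher (0.88 ± 0.20 and 0.51 ± 0.15; limma adjusted p = 0.000630 and 0.00269) and *CD14* and *MS4A1* not called. Of the 15 *PTPRC* probes 6 were well above background in the control. *CSF1R*, *ITGAM*, *CD3E* and *AIF1*, which define macrophages and T cells, did not pass the filter. The summed signal of all 8 leukocyte markers was 16070 to 20541 in the control and 19510 to 31227 with HMB, a range that overlaps. None of the 4 endothelial markers was well above background on all arrays in either channel, with a summed signal of 38.4 to 69.5 in the control and 42.3 to 71.4 with HMB. The part of these cell types in the chemokine ratios was not tested.

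**Figure D5:**
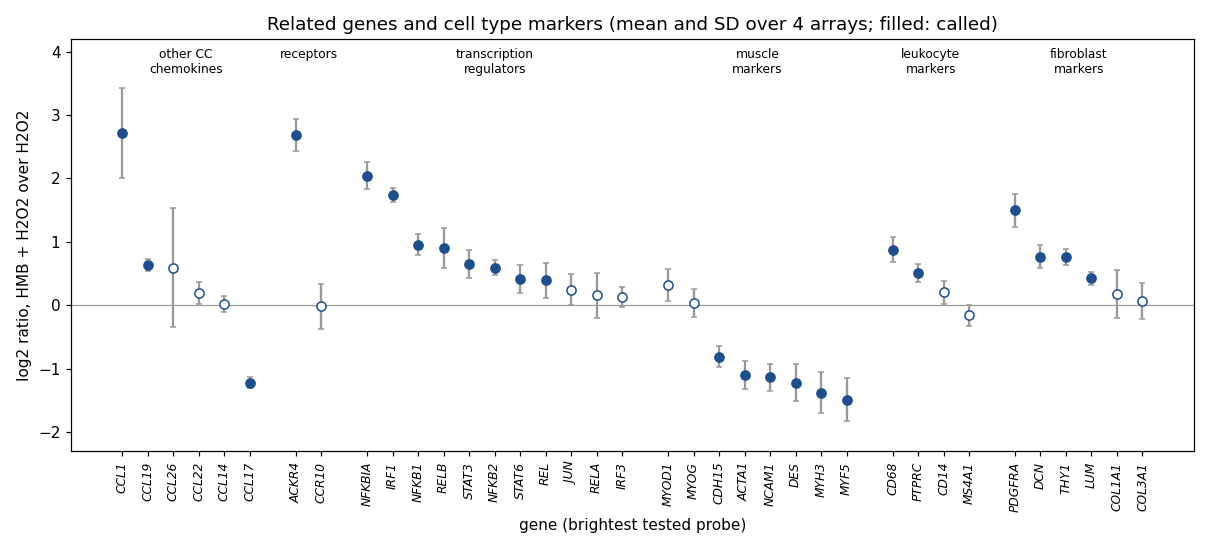
The mean log2 ratio with its SD over 4 arrays (vertical axis) is plotted for the tested genes of 6 lists (horizontal axis); filled circles were called and open circles were not. The regulators lie at 0.13 or higher with *NFKBIA* highest, 6 muscle markers lie at -0.81 or lower, and *CCL17* is the called gene below 0 among the other CC chemokines.

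The genes with ratios nearest to those of each chemokine were sought among 8314 other genes. The measure was the root mean square difference between log2 ratios over the 4 arrays. It depends on the level of the ratios, and whether genes moved together over arrays was not tested. For *CCL2* this was *IL6*, an inflammatory cytokine, with 4.53, 4.35, 4.41 and 3.99 and a difference of 0.12. For *CCL8*, read by its bridging probe alone, it was *GBP5*, an interferon-induced GTPase, at a difference of 0.13. For *CCL11* it was *OAS1*, an antiviral enzyme, at 0.16. The closest match of all was *UBE2L6*, a conjugating enzyme for ISG15, at 0.06 from *CCL13*. For *CCL5* it was *BST2*, an antiviral membrane protein, at 0.15. The nearest to *CCL20* was *CXCL1*, a chemokine for neutrophils, at a larger difference of 0.47, with 6.55, 6.96, 6.28 and 5.75 on the 4 arrays. Second nearest were *MX1* for *CCL2* (0.13), *DDX58* for *CCL8* (0.17) and *IRF7* for *CCL11* (0.17). They were *XAF1* for *CCL13* (0.10), *TRIM34* for *CCL5* (0.16) and *CXCL10* for *CCL20* (0.62).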

How the data were processed

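Cy5-labelled RNA of HMB cells and Cy3-labelled RNA of control cells were hybridized to 4 Agilent horse 4x44K arrays. The deposited intensity values (spot means, backgrounds and processed signals) came from Feature Extraction, for which the file headers give version 10.10.1.1 and build EquCab1. The authors subtracted background and normalized within arrays by linear and lowess methods. The deposited log10 ratios, Cy5 over Cy3, were converted here to log2; the authors' table held the log10 ratios in the same row order. Dim signals were replaced by surrogates in the deposited values. The number of arrays limits the precision.

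Spots marked non-uniform or as population outliers were left out and spots of a probe averaged. Ratios of 24670 of 43603 probes were fitted with limma 3.58.1 in R 4.3.3, with Benjamini-Hochberg correction; the thresholds, 0.05 for the adjusted p and 1.3 for the FC, were those of the study's methods. The tests were run first on simulated data. Ratios correlated between arrays with r of 0.84 to 0.92, across probes. P-values measure the spread between these arrays.

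The members and lists were chosen with earlier results of these data known. All 25 member probes were covered, overlapping ones as a range. Beyond them were named up to 5 called genes by size in each list of chemokines, receptors and regulators. The nearest and second nearest gene to each member were also named, with marker and neighbouring genes picked with their values seen. Genes without a symbol in the files were named through the full name in the probe description or an alias (4 regulators, 1 receptor, 1 CC chemokine, 2 muscle, 1 leukocyte and 1 fibroblast marker). A few listed genes are not reported here and were left out of the counts. No columns of other samples were used. Alternatives covered background correction, scaling, the filter on dim probes, marked spots, the test and leaving out each array.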

Additional observations from a re-analysis of the deposited data

Results flagged for a closer look

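On array 4 the log2 ratio of 3 of the *CCL2* probes at the 3′ end and 1 of *CCL20* stood far from those of the other 3 arrays. The gap to the nearest array, as a share of the whole range, was 0.863 for A_69_P001616 of *CCL2* (3.85 against 4.38 to 4.46), 0.896 for A_69_P001618 (3.80 against 4.40 to 4.48) and 0.856 for A_69_P001619 (3.87 against 4.39 to 4.48). For A_69_P050604 of *CCL20* it was 0.922 (6.49 against 6.91 to 6.94). Of 44 probes examined 4 passed Dixon's limit, chance marks about 1 in 20, and the *CCL2* probes overlap by all but a few bases.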

How the results depend on the processing

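The count of chemokine probes past the thresholds, given as a description, was 25 under 14 alternatives and 23 of 23 tested when both channels had to be well above background. The probes called over the array numbered 7046 in the fit as reported, 3539 with normexp and loess, 4440 with loess alone and 2822 with limma's test against an FC of 1.3. The methods' t-test with Benjamini-Hochberg correction called 5030. With limma and 1 array left out, 6641 to 7155 were called. With the channels as 8 separate samples, without the pairing of channels by array (no replicate block), 6686 were called. The other CC chemokines called went from 3 to 5 with no filter on dim probes (2 higher and 3 lower), and the regulators from 8 to 4 with the test against an FC of 1.3 and to 5 with normexp; leaving out 1 array gave 3 and 6 to 8. The receptor count stayed at 1. Without array 1 or 2, *REL* and *STAT6* were not called, and without array 3 *REL* was not. Median centring without lowess moved the median over all tested probes from -0.07 to 0.08 (log2) and *CCL2* to 4.58. Averaging all probes of a gene moved *CCL8* to 4.55 and *CCL5* to 2.94. With normexp *CCL11* gave 2.43 and *CCL13* 2.38. The cause of these shifts was not tested. The control signal of the *CCL8* pair at the 3′ end was not well above background, so its ratio rests on dim control values.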
